A study of Mus musculus and Homo sapiens with 32 samples.

Results

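Whole kidneys of Pcmt1 knockout mice (Pcmt1-/-) were compared with whole kidneys of wild-type mice, with 4 libraries of each genotype out of 32 samples in the series. The members described are the 410 genes that the authors deposited for this comparison, found by the table's columns KO1 to KO4 and WT1 to WT4. Every one of the 410 genes differed between the group means of FPKM (fragments scaled to gene length and library depth) by at least 1.501-fold, and its higher group mean was at least 1.002. The table is therefore a list chosen on these same 8 libraries: 255 genes had the higher mean in knockout and 155 in wild-type. Differences between the genotypes inside it describe that choice and are no independent evidence. The same gene IDs were looked up in a second experiment, which shares no library with the first. It covers Pcmt1 fl/fl and Pcmt1 tKO kidneys (3 libraries a group) in 3 settings: a sham operation, obstruction of 1 ureter (unilateral ureteral obstruction, UUO), and obstruction plus LY2109761, which inhibits the TGF-β receptor kinases. The sham and UUO groups without LY2109761 received its vehicle, DMSO. The labels do not spell out tKO and give no strain, age or sex of the animals and no construction of either knockout. They do not say that replicates are separate animals; each p-value therefore reflects only how far these libraries scatter, and that scatter may be technical.

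PCMT1 is an enzyme that recognises isoaspartyl residues, a form of damage that aspartate and asparagine take on as proteins age, and methylates them so that the normal peptide bond can be restored. It is made in most tissues. The kidney mixes many cell types: proximal tubule cells make up most of its RNA, while leukocytes, vessel cells, fibroblasts of the sheath around vessels and fat at the hilum contribute less. In such bulk tissue, fewer cells of a type and less RNA per cell cannot be told apart.

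Sequencing depth, worked back from each gene's count and FPKM, was 18954709 to 20004980 reads in wild-type and 15988073 to 17278143 in knockout, so the genotypes did not overlap in depth; its part in the results was not tested. The listed genes took 1.995% to 2.466% of the reads. Levels in whole kidney are given as CPM, the count divided by the recovered depth in megareads. Pcmt1 itself (GRCm38 chromosome 10, 7629373 to 7681136) is not among the 410 genes, so the knockout could not be checked in whole kidney. In the obstruction experiment Pcmt1 was 42.8 to 48.9 CPM in fl/fl sham kidneys, and 49.3, 22.7 and 24.3 CPM in tKO sham replicates 1 to 3. The library labelled tKO sham replicate 1 therefore goes against its label, and the counts of called genes in sham kidneys are given with and without it. After obstruction Pcmt1 was 35.3 to 41.4 CPM in fl/fl and 24.7 to 26.1 CPM in tKO. After obstruction plus LY2109761 it was 25.7 to 38.9 CPM in fl/fl and 23.1 to 27.9 CPM in tKO, and the genotypes overlapped.

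Of the 410 listed genes, 382 passed the filter on low counts. edgeR's quasi-likelihood test called 177 higher and 78 lower in knockout at an adjusted p below 0.05, which is 66.8% of the genes tested (46.3% higher, 20.4% lower), a share fixed largely by how the list was made. In 182 of the 410 genes (44.4%) the 4 knockout libraries did not overlap the 4 wild-type libraries, 134 of them higher and 48 lower in knockout. Most calls lay close to the threshold: 206 of the 255 had an adjusted p of at least 0.03, and 2 were under 0.01. The counts fell accordingly when single libraries were left out, to 28 higher and 14 lower without knockout replicate 1, 96 and 50 without knockout replicate 4, 44 and 25 without wild-type replicate 1, 25 and 15 without wild-type replicate 2, 84 and 58 without wild-type replicate 3, and 30 and 14 without wild-type replicate 4. Scaling set the balance of the calls: with TMM factors computed on the listed genes, which shift all log2 fold changes by a median of -0.29, 34 were called higher and 123 lower. The signs did not shift with it, as 237 of 382 log2 differences were positive under either scaling. TMM factors assume that most genes do not change, which a list chosen for its differences does not meet.

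Among named genes followed individually, outside the pseudogenes and the UGT1A locus, 15 kept an adjusted p below 0.05 whichever single library was left out. Cyp26b1, Pbk, Aldh1a7, Stc1, Slc12a1, Uhrf1, Cdc20, H2-Q10 and Myo3b were higher in knockout, and Nfat5, D630029K05Rik, Ywhag, C3, Clec3b and Kcnip2 were lower. Ywhag, a 14-3-3 adaptor that binds phosphorylated proteins, was 98.2, 119.3, 114.6 and 108.8 CPM in wild-type and 50.8, 39.2, 42.3 and 43.3 CPM in knockout. Its groups were far apart, with a log2 difference of -1.33 ± 0.23 (adjusted p = 0.012). The others followed in this way lost the call, where they had one, without at least 1 library. Genes named only as members of a functional group were not followed individually. The values of both are given as a description of these 8 libraries.

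The functional groups below were put together after the values had been seen, and describe how the list divides. Their counts stand beside the 46.3% of tested listed genes called higher and the 20.4% called lower, shares that the selection of the list fixes, and nothing particular to a group is read from them. Among the 313 listed protein-coding genes, 132 were called higher and 66 lower. The 54 listed processed pseudogenes had a median level of 1.05 CPM, and 48 had the higher mean in knockout, against 255 of all 410 listed genes. Of the 54 pseudogenes, 36 were called higher, 0 lower and 14 were not tested. Such copies share sequence with their parent genes, and how multi-mapped reads were counted is not given in the sources used here, so their counts are uncertain. Of 33 TGF-β pathway genes looked for, 1 is listed, Gdf15, a stress-induced cytokine, which was not called. None of 31 fibrillar collagen and matrix genes, 12 podocyte genes, 20 endothelial genes or 21 collecting duct genes is listed. Absence from the list says only that a gene did not meet the authors' selection.

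The largest functional groups called higher in knockout kidneys hold genes of DNA replication and cell division. In S phase the MCM helicase unwinds DNA and ribonucleotide reductase supplies deoxynucleotides, and in mitosis cyclin-dependent kinase 1 with its cyclins drives entry and the anaphase-promoting complex with Cdc20 drives exit. Of 16 listed S-phase genes 13 were called higher, and of 17 listed mitotic genes 16, with 0 called lower in either set, where 46.3% of all tested listed genes were called higher. The median log2 difference was 0.80 and 0.95. In a general list of 35 cell cycle genes, 16 are in the table, of which 13 were called higher.

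Several mitotic promoters carry a shared pair of elements, and 3 are shown as examples. The list holds genes that differ in either direction, and the group was put together after the values had been seen. The shared direction of the mitotic genes is therefore no independent evidence. The CHR element (TTTGAA) and the CCAAT box (CCAAT) are known from promoters active in G2 and mitosis; both strands were searched, and the capitals mark every match. Sequences are RefSeq promoters, GRCm38.p6, 250 bases before to 50 after the gene start, read on the gene's strand, here the minus strand. Cdk1 is at chr10:69352863-69353162, Ccnb2 at chr9:70421505-70421804 and Cdc20 at chr4:118437294-118437593.
Cdk1: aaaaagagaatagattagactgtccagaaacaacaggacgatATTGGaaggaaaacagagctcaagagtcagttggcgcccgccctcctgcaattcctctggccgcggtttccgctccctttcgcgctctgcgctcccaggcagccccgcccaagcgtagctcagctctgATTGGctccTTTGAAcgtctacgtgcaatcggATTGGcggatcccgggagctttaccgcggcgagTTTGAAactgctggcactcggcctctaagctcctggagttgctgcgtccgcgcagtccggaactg
Ccnb2: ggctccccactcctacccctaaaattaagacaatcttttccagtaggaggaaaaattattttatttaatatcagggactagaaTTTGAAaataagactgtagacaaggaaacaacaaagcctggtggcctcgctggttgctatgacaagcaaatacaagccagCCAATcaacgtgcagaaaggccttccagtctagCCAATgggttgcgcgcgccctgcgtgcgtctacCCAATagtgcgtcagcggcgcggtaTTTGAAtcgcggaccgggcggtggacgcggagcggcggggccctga
Cdc20: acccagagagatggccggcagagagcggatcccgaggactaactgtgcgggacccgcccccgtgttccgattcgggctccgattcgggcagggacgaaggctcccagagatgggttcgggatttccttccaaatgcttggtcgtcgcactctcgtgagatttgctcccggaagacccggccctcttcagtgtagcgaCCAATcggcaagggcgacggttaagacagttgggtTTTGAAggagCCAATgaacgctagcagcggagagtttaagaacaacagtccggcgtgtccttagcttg
A promoter was matched for 14 of the 17 mitotic genes. The CHR letters stand in 13 of these 14, and both elements in 12. Of all 27025 genes with a promoter, 20.2% hold the CHR letters, 41.1% a CCAAT box and 8.0% both. Among 15 matched S-phase genes 2 hold the CHR letters. A CCAAT box stands in 11 of these 15 and in 12 of the 14 mitotic genes, so it is not particular to the mitotic set. Of the 15 S-phase genes 4 hold an E2F-type site (TTTGGCG or TTTCCCGC), against 3.0% of all genes. Mcm6, a helicase subunit, is shown for its pair of TTTGGCG matches (chr1:128359656-128359955, minus strand, E2F-type letters in capitals).
Mcm6: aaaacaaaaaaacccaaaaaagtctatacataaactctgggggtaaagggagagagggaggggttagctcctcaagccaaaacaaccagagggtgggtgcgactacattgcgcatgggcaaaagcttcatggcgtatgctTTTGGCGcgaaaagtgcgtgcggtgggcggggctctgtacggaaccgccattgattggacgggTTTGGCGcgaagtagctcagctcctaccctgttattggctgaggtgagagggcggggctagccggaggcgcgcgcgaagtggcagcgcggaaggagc
In all, 10 motifs were searched; the others were a longer E2F site, the E-box and response elements for retinoic acid and vitamin D. Of all 27025 genes, 0 hold the vitamin D letters, 13 the retinoic acid letters and 8 their longer form. None was found in the 7 matched genes of those pathways, which letters this rare could hardly show, so nothing is read from it. A match is a description of letters, not of binding.

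Cdk1 was 4.40, 2.56, 5.28 and 4.70 CPM in the wild-type libraries and 9.90, 13.98, 6.46 and 4.44 CPM in the knockouts. Knockout replicates 1 and 2 were high, and knockout replicate 4 lay among the wild-type values. Mki67, the Ki-67 proliferation antigen, was 7.90, 9.78, 9.76 and 8.81 CPM against 21.6, 30.9, 16.9 and 7.63 CPM, again with replicate 4 at the wild-type level. Mcm5, another helicase subunit, did not overlap: 8.60, 6.35, 10.7 and 9.44 CPM in wild-type and 22.8, 24.8, 14.3 and 12.7 CPM in knockout, a log2 difference of 1.09 ± 0.29 (SE, adjusted p = 0.029). Pbk, a mitotic kinase, had the largest difference of the mitotic genes at 1.62 ± 0.29 (adjusted p = 0.012). Its knockout libraries held 8.45, 10.7, 7.63 and 4.63 CPM and its wild-type libraries 1.91 to 2.85 CPM. Cdc20 was 3.99 to 5.70 CPM in wild-type and 8.19 to 16.3 CPM in knockout. Rrm2, a ribonucleotide reductase subunit, and Uhrf1, which carries DNA methylation through replication, were 2.35-fold and 2.59-fold higher. The summed level of the 17 mitotic genes was 103.2 to 138.2 CPM in wild-type and 162.1 to 273.8 CPM in knockout, with replicate 4 the lowest knockout. All 17 mitotic and all 16 S-phase log2 differences stayed positive whichever library was left out, but fewer were called: 3 and 1 without knockout replicate 1 or wild-type replicate 2, 4 and 3 without wild-type replicate 1 or 4, 6 and 7 without knockout replicate 2, and 7 and 7 without wild-type replicate 3. With TMM factors on the listed genes 4 and 2 were called.

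**Figure D1:**
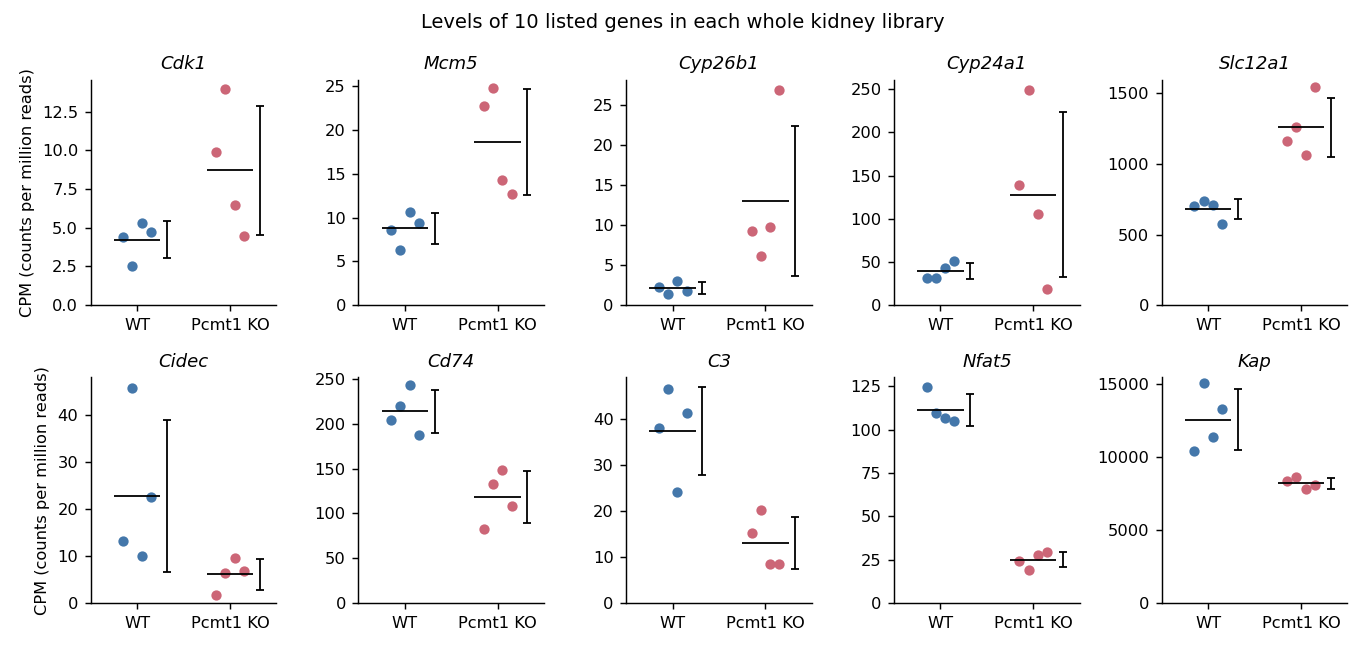
Level of 10 listed genes in each library (points; vertical axis in CPM, starting at 0), for wild-type and Pcmt1 knockout whole kidney; lines are group means and bars are ± 1 SD (n = 4). Nfat5 at 19.0 to 29.2 CPM in knockout lies far below wild-type at 105.1 to 124.9 CPM, while Cdk1 and Cyp24a1 have 1 knockout library at or below the wild-type values.

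Antigen presentation genes were lower in knockout. MHC class II molecules display peptides to helper T cells, and Cd74 is the invariant chain that guides them through the cell. Cd74 was 204.4, 220.3, 243.7 and 187.4 CPM in wild-type and 82.9, 132.7, 148.7 and 108.4 CPM in knockout, with no overlap (log2 difference -0.86 ± 0.25, adjusted p = 0.036). H2-Aa, a class II alpha chain, was 62.7 to 85.9 CPM against 21.2 to 52.1 CPM, and H2-Ab1, its beta partner, 60.4 to 101.6 against 27.0 to 53.04 CPM. Of 8 listed class II and class Ib genes 6 were called lower. H2-Q10, a class Ib gene, went the other way, at 2.75 to 7.995 CPM in wild-type and 11.0 to 21.5 CPM in knockout (log2 difference 1.55 ± 0.35, adjusted p = 0.019). H2-Q genes are close copies of each other, so their separate values are uncertain. Without knockout replicate 1, or without any 1 of the wild-type libraries, 0 of these 8 genes were called lower, and without knockout replicate 2 or 4, 3 were.

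Of 13 listed leukocyte genes, 12 were tested and 8 were called lower. Ccl5, a chemokine of T and NK cells, was 0.768 to 3.27 CPM in wild-type and 0.543 to 0.677 CPM in knockout. Themis2, a signalling adaptor of B cells and macrophages, was 3.45 to 4.27 against 1.56 to 2.95 CPM. Both are low levels, and Ccl5 rests on 9 to 11 reads in the knockout libraries. The neutrophil genes S100a8 and S100a9 were called higher in knockout: S100a9 was 1.05, 0.359, 1.21 and 1.002 CPM in wild-type and 3.36, 1.51, 1.35 and 3.25 CPM in knockout. These S100a9 levels are low as well. C3, the central complement component, was 38.1, 46.5, 24.1 and 41.4 CPM in wild-type and 15.2, 20.2, 8.43 and 8.51 CPM in knockout, 2.87-fold lower (adjusted p = 0.019). Without knockout replicate 1 or wild-type replicate 4, 0 of the leukocyte genes were called, and 1 to 5 without knockout replicate 2 or 4 or wild-type replicate 1, 2 or 3.

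Fat cell genes were also lower, with wide variation inside each genotype. Cidec, a lipid droplet protein, was 13.2, 45.9, 9.91 and 22.5 CPM in wild-type and 1.68, 6.39, 9.60 and 6.76 CPM in knockout, which leaves the groups apart by a narrow margin. Cfd, the adipocyte-secreted complement factor D, was 72.0, 133.7, 27.6 and 105.7 CPM against 4.80, 32.6, 38.1 and 27.4 CPM, and these overlapped. Adipoq, the hormone adiponectin, was 3.42 to 16.3 CPM in wild-type and 1.04 to 6.81 CPM in knockout. Of 14 listed adipocyte and brown fat genes 10 were called lower, 2 of them without overlap. Their summed level ranged from 128.7 to 581.9 CPM among the wild-type libraries alone, and from 49.5 to 182.3 CPM among the knockouts. The amount of attached fat per sample is not given in the labels, and its part in these differences was not tested. With knockout replicate 1, wild-type replicate 2 or wild-type replicate 4 left out, 0 of the 14 were called, and 1 without knockout replicate 4 or wild-type replicate 1.

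Of 11 genes typical of fibroblasts around vessels and their matrix, 7 were called lower. Pi16, a marker of adventitial fibroblasts, was 12.9, 13.7, 9.86 and 14.7 CPM in wild-type and 5.50, 9.58, 4.31 and 3.88 CPM in knockout. Clec3b, which encodes the plasminogen-binding protein tetranectin, was 5.999 to 9.81 CPM against 2.69 to 3.86 CPM (log2 difference -1.11 ± 0.25, adjusted p = 0.019). Mfap5, a microfibril protein, was 4.40 to 6.595 against 2.25 to 2.95 CPM. In the same libraries Acta2, the smooth muscle actin, was higher in knockout: 52.1 to 63.7 CPM against 177.9, 65.1, 97.1 and 92.4 CPM. Without wild-type replicate 2, 2 of the 11 fibroblast genes were called, and 3 without knockout replicate 1 or wild-type replicate 1 or 4.

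Of 6 listed genes of retinoid metabolism and signalling 4 were called higher and 1 lower in knockout. The 3 listed genes of vitamin D and mineral balance were all called higher. Cyp26b1, the enzyme that degrades retinoic acid, was 2.25, 1.38, 3.07 and 1.74 CPM in wild-type and 9.32, 6.15, 9.72 and 26.9 CPM in knockout (6.15-fold, adjusted p = 0.012). The retinoic acid receptor Rarb was 4.59 to 7.35 against 8.08 to 14.3 CPM, and Aldh1a7, an aldehyde dehydrogenase, 4.78 to 6.44 against 8.98 to 15.7 CPM. Bco2, a carotenoid-cleaving enzyme, was lower without overlap, 5.38 to 6.84 against 2.95 to 5.12 CPM, and Rdh16f2, a retinol dehydrogenase, was not called at 198.3 to 286.1 against 121.8 to 206.3 CPM. Cyp24a1, which inactivates vitamin D, was 31.7, 32.1, 42.7 and 50.7 CPM in wild-type and 138.8, 249.5, 105.9 and 18.3 CPM in knockout. Cyp27b1, which activates it, was 7.02 to 12.5 CPM in wild-type and 25.5, 25.1, 26.5 and 7.38 CPM in knockout. In both, knockout replicate 4 lay within or below the wild-type range and the other 3 well above. Stc1, the mineral hormone stanniocalcin 1, was higher in every knockout library, 16.7 to 31.8 against 7.81 to 12.3 CPM. Without knockout replicate 1 or 2 or any 1 wild-type library, 1 of the 3 vitamin D and mineral genes was called, and without knockout replicate 3, 2. Of the retinoid genes 2 were called higher without knockout replicate 1 or 3 or any 1 wild-type library, and Bco2 lost its call without any 1 library but knockout replicate 2.

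Slc12a1, the sodium-potassium-chloride cotransporter of the thick ascending limb, is one of the more abundant and evenly measured genes of the list. It was 701, 738.5, 709.7 and 577.6 CPM in wild-type and 1162, 1263, 1064 and 1546 CPM in knockout, 1.85-fold higher (log2 difference 0.89 ± 0.20, adjusted p = 0.019). Ren1, the protease renin, was 63.8 to 90.2 CPM against 183.9, 88.7, 132.5 and 114.3 CPM, with 1 knockout library inside the wild-type range. Of 6 listed genes of salt transport and renin, 2 were called higher and 4 were not called, 1 of these lower without overlap. With TMM factors on the listed genes, 1 of the 6 was called higher and 1 lower. Slc5a3, an inositol transporter induced by high salt, was 151 to 178.3 against 230.4 to 280.4 CPM. Nfat5, the transcription factor of the response to high salt, was 124.9, 109.4, 106.6 and 105.1 CPM in wild-type and 24.4, 19.0, 27.5 and 29.2 CPM in knockout. Its log2 difference was -2.16 ± 0.25 (adjusted p = 0.00139), the smallest adjusted p of the list. Nfat5 is at GRCm38 chromosome 8, 107293470 to 107379517, on another chromosome than Pcmt1.

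Enzymes of sterol synthesis were higher in knockout without overlap. Idi1 and Fdps, which make the isoprenoid precursors of cholesterol, were 16.1 to 21.2 against 22.6 to 50.2 CPM and 16.5 to 20.8 against 24.7 to 45.1 CPM. Neither call held without knockout replicate 1 or 4 or any 1 wild-type library. The 3 listed immediate early genes, Nr4a1, Dusp8 and Arc, were all called higher, 2 of them without overlap. Nr4a1, a nuclear receptor induced within minutes of a stimulus, was 4.76 to 7.65 CPM in wild-type and 17.3, 11.6, 8.06 and 14.3 CPM in knockout. Arc, an activity-induced gene, overlapped at 4.63 to 8.09 against 7.32 to 14.3 CPM. Without knockout replicate 1 or wild-type replicate 2 or 4, 0 of the 3 were called, and 1 without wild-type replicate 1.

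Kap, the androgen-regulated proximal tubule protein, was the most abundant gene that was lower in knockout, with no overlap (mean 12530 ± 2081 CPM in wild-type and 8193 ± 364.5 CPM in knockout, SD, n = 4). The call of Kap was lost without at least 1 library. Hpd, a tyrosine-degrading enzyme, was 94.6 to 176.3 against 40.8 to 90.6 CPM. Of 11 listed proximal tubule genes, 5 were called lower, 2 higher and 4 neither. Without knockout replicate 1 or wild-type replicate 1, 2 or 4, 1 was called lower. Of a general list of 58 proximal tubule genes, 6 are in the table, with 3 called higher and 1 lower and a median log2 difference of 0.736. Of 48 genes that are sex-linked or differ between the sexes in mouse kidney, 4 are listed: Kap, Cyp2d12 and D630029K05Rik were called lower and Slc7a13 higher. The sex of the animals is not in the labels and the list holds no Xist or Y-linked gene, so its part in these differences was not tested.

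At the UGT1A locus, where alternative first exons are joined to shared last exons, 1 library differed from its group in several genes. Ugt1a1, which conjugates bilirubin, was 33.5, 8.76, 33.4 and 52.2 CPM in wild-type and 38.9, 381.3, 334.4 and 367.9 CPM in knockout. Ugt1a2 was 907.1, 831.2, 617.7 and 1404 CPM in wild-type and 988.5, 282, 302.1 and 302.5 CPM in knockout. Knockout replicate 1 lay within the wild-type values for both. Ugt1a10 did not follow this, at 77.1 to 90.1 CPM in wild-type and 133.6, 163.1, 121.6 and 173 CPM in knockout, without overlap. Ugt1a1 and Ugt1a2 end at the same base in the table's annotation (GRCm38 chromosome 1, 88218997), so the division of reads among them is uncertain. Other genes held a single library far from the rest of its group: Eva1a, an autophagy gene, was 56.4 to 62.8 CPM in wild-type and 13.8, 18.7, 18.3 and 52.7 CPM in knockout. Among 254 listed genes with a mean of at least 5 CPM, 75 varied over 3-fold within a genotype, and 12 did so in both.

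**Figure D2:**
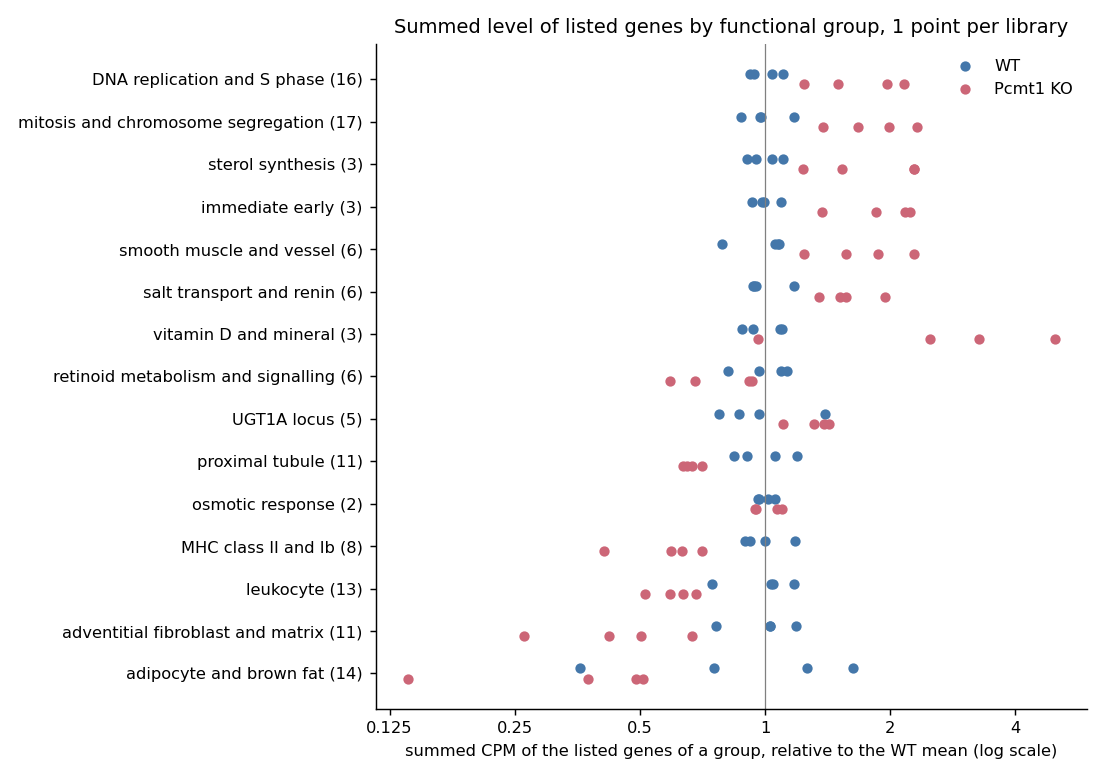
Summed CPM of the listed genes of 15 functional groups, each library divided by the wild-type mean of its group (horizontal axis, log scale; number of listed genes in brackets); 1 point per library. Both cell division groups have every knockout library above every wild-type library, while the adipocyte group spreads from 128.7 to 581.9 CPM within wild-type.

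The second experiment asks whether the same genes differ between Pcmt1 tKO and fl/fl kidneys, in libraries that did not choose the list. Of the 403 listed IDs found there, 380 were tested. In sham kidneys 27 were called higher and 17 lower in tKO, 11.6% of those tested, against 12.3% of all 19256 genes (5.76% higher, 6.57% lower). The listed genes were thus called about as often as genes at large. Among the 364 tested in both experiments, 191 (52.5%) had the same sign in sham tKO as in whole kidney knockout, and 32 were called in both, 13 higher in both, 1 lower in both and 18 in opposite directions. Without the library labelled tKO sham replicate 1 there were 33 higher and 23 lower, 195 of 367 genes (53.1%) had the same sign, and 38 were called in both, 15 higher, 1 lower and 22 in opposite directions. Without each other sham library there were 7 to 25 higher and 3 to 6 lower, fewest without fl/fl sham replicate 2 (7 and 4) and tKO sham replicate 2 (11 and 3), and the number called in both was 9 to 25. A fit of the 6 sham libraries alone called 0 in either direction. The TMM factor of tKO sham replicate 3 was 0.352, against 0.654 to 0.833 in the other sham libraries, which raises its CPM relative to theirs. With library sizes taken as column totals, 1 listed gene was called higher and 5 lower.

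After obstruction 33 listed genes were called higher and 26 lower in tKO, 15.5% against 17.9% of all genes (8.26% higher, 9.65% lower). Without fl/fl UUO replicate 1 there were 11 and 13, without fl/fl UUO replicate 3 21 and 17, without tKO UUO replicate 1 25 and 17, and without tKO UUO replicate 2 19 and 15. The same sign as in whole kidney was seen in 173 of 364 (47.5%), and of 41 called in both, 27 went in opposite directions. In the LY2109761 groups the same sign was seen in 218 of 364 (59.9%), and of 4 called in both, 2 went in opposite directions. With LY2109761 the counts were 2 higher and 4 lower, 1.58% against 2.98% (0.888% higher, 2.09% lower), and 0 to 5 higher and 0 to 9 lower with 1 library left out, 0 and 0 of them without fl/fl replicate 3 or tKO replicate 2 or 3. Obstruction itself moved many of them: in fl/fl kidneys 102 listed genes rose and 88 fell after UUO, 190 of 380, against 39.6% of all genes (20.9% higher, 18.7% lower). This last comparison shares its fl/fl libraries with the sham and UUO comparisons of tKO, so no overlap between them was taken. In tests of the difference between differences, added after values were seen, obstruction changed the tKO difference of 1 listed gene, Adcy1, against 0.0415% of all genes (0.0104% up, 0.0312% down). LY2109761 changed that of 39 of 380, 16 up and 23 down, or 10.3% against 13.8% of all genes (7.05% up, 6.79% down).

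**Figure D3:**
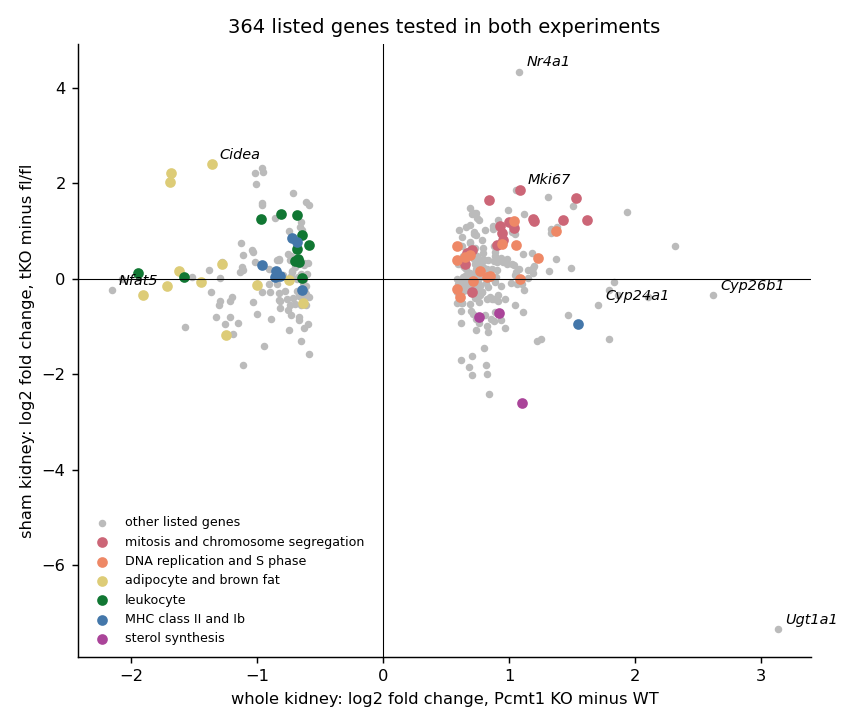
Log2 fold change of 364 listed genes in whole kidney (knockout minus wild-type, horizontal) and in sham kidney (tKO minus fl/fl, vertical), 1 point per gene, 6 groups coloured. The gap around 0 on the horizontal axis is the authors' selection, and 191 of the 364 points (52.5%) have the same sign in both.

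Mitotic genes were among those with the same direction in both experiments. In sham kidneys 6 of the 17 were called higher in tKO (Mki67, Top2a, Ube2c, Cdca3, Plk1 and Cdc20), and 16 had a positive log2 difference, with a median of 1.11, against a median of 0.03 for all genes. Mki67 was 3.76, 2.96 and 8.80 CPM in fl/fl and 14.5, 14.7 and 28.3 CPM in tKO (log2 difference 1.86, adjusted p = 0.011). Scaled to column totals alone it was 2.76, 2.13 and 7.002 against 12.1, 9.64 and 9.95 CPM, still without overlap, and was not called (log2 difference 1.41, adjusted p = 0.067). Plk1, a mitotic kinase, was 2.44 to 2.84 against 4.62 to 6.33 CPM. Of the whole list of 35 cell cycle genes 8 were called higher in sham tKO, where 5.76% of all genes were. Without the library labelled tKO sham replicate 1 it was 9, without fl/fl sham replicates 1 and 2 in turn 3 and 1, without tKO sham replicate 3 3, and with column totals 0. Without the library labelled tKO sham replicate 1, 7 of the 17 mitotic genes were called, without fl/fl sham replicates 1, 2 and 3 in turn 3, 2 and 9, without tKO sham replicate 3 4, and with the sham libraries fitted alone or with column totals 0. After obstruction 1 of the 17, Cdca3, was called higher in tKO, and 16 of 17 rose with obstruction in fl/fl. Of the 16 S-phase genes edgeR called 0 in sham or obstructed tKO, but 4 higher in sham without fl/fl sham replicate 3, and DESeq2 called 2 higher in sham.

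Nr4a1 was also higher in sham tKO, at 4.54, 5.47 and 4.43 CPM in fl/fl and 12.1, 104.4 and 177 CPM in tKO (log2 difference 4.34, adjusted p = 0.004), and it was also called with column totals. The tKO library with the fl/fl level of Pcmt1 was the lowest of its group. The sham calls of Mki67 and Nr4a1 held whichever single library was left out, but neither held with the sham libraries fitted alone.

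The genes of the leukocyte group and the sterol genes went in the other direction than in whole kidney. The neutrophil gene S100a8, outside that group, did not. It was higher in obstructed tKO, with a log2 difference of 1.05 to 1.71 with 1 library left out, and lost its call without at least 1 library. Of 13 listed leukocyte genes 3 were called higher in sham tKO and 10 in obstructed tKO, where all 13 had a positive log2 difference. Cd53, a tetraspanin of leukocytes, was 39.6, 53.8 and 30.2 CPM in obstructed fl/fl and 78.6, 186.4 and 72.9 CPM in obstructed tKO. Mpeg1, a macrophage pore-forming protein, was 103.2 to 156.2 against 151.3 to 319.5 CPM. A fit of the 6 obstructed libraries of these groups alone called 4 of the 13, as did leaving out fl/fl UUO replicate 1 or tKO UUO replicate 2, and 6 were called without fl/fl UUO replicate 3. The 3 sham calls stood at 3 without tKO sham replicate 1, at 0 without tKO sham replicate 2, and at 1 without fl/fl sham replicate 1 or 2. H2-Aa and H2-Eb1 were higher in obstructed tKO, a call that was lost without fl/fl UUO replicate 1 or 3 or tKO UUO replicate 1 or 2, and Cd74 was not called in any of the 3 tKO comparisons.

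Fdps was 33.6, 35.6 and 32.9 CPM in fl/fl sham and 24.5, 18.6 and 14.7 CPM in tKO sham, with no overlap (log2 difference -0.81, adjusted p = 0.033). The call held without tKO sham replicate 1 (adjusted p = 0.0101) and was lost without each of the other sham libraries and with column totals (adjusted p = 0.126). After obstruction it was also lower in tKO, 23.4 to 35.7 CPM in fl/fl against 14.8 to 17.9 CPM. In a list of 32 lipid and cholesterol synthesis genes, of which 31 were tested, 11 were called lower in sham tKO and 17 in obstructed tKO, with 0 higher, where 6.57% and 9.65% of all genes were called lower. In sham the count was 13 without tKO sham replicate 1, 6 without tKO or fl/fl sham replicate 2, and 0 with the sham libraries fitted alone; in obstructed kidneys it was 11 without fl/fl replicate 1 and 10 without tKO replicate 2. With column totals it was 5 in each. Aldh1a7 was likewise lower in tKO, 24.1 to 37.5 against 9.36 to 14.4 CPM in sham, where whole kidney knockout had it higher. Its sham call was lost without replicate 2 or 3 of either genotype, and with column totals.

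Several genes called in whole kidney were not called in tKO. Cyp26b1 was 7.39 to 10.2 CPM in fl/fl sham and 6.17 to 8.86 CPM in tKO sham, and Slc12a1 575.2 to 917 against 896.4 to 1538 CPM. The Slc12a1 range lay higher in tKO, the direction seen in whole kidney, but overlapped that of fl/fl. Nfat5 ranged from 34.8 to 161 CPM within fl/fl sham alone, a spread in which a change like that of whole kidney could be missed. C3 was not called in sham and was lower in obstructed tKO, 654 to 960.9 CPM against 1558 to 2244 CPM in fl/fl. Of the 12 tested adipocyte genes 1, Cidea, was called higher in sham tKO, as without tKO sham replicate 1. Cfd was 97.3, 1.18 and 2.06 CPM in fl/fl sham, and without fl/fl sham replicate 1, the library where it was high, 5 of 13 adipocyte genes were called higher and all 13 were positive. Without fl/fl sham replicate 2 or 3 or tKO sham replicate 2, 0 were called. With LY2109761 2 of the 12 were positive and 0 were called. Of 10 tested fibroblast genes, Lamc3 and Mfap5 were called higher in sham tKO, and 0 to 2 with 1 library left out. In obstructed tKO 9 were positive and Mfap5 was called higher. With LY2109761 2 of the 10 were positive, and Clec3b was called lower, a call lost without at least 1 library.

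**Figure D4:**
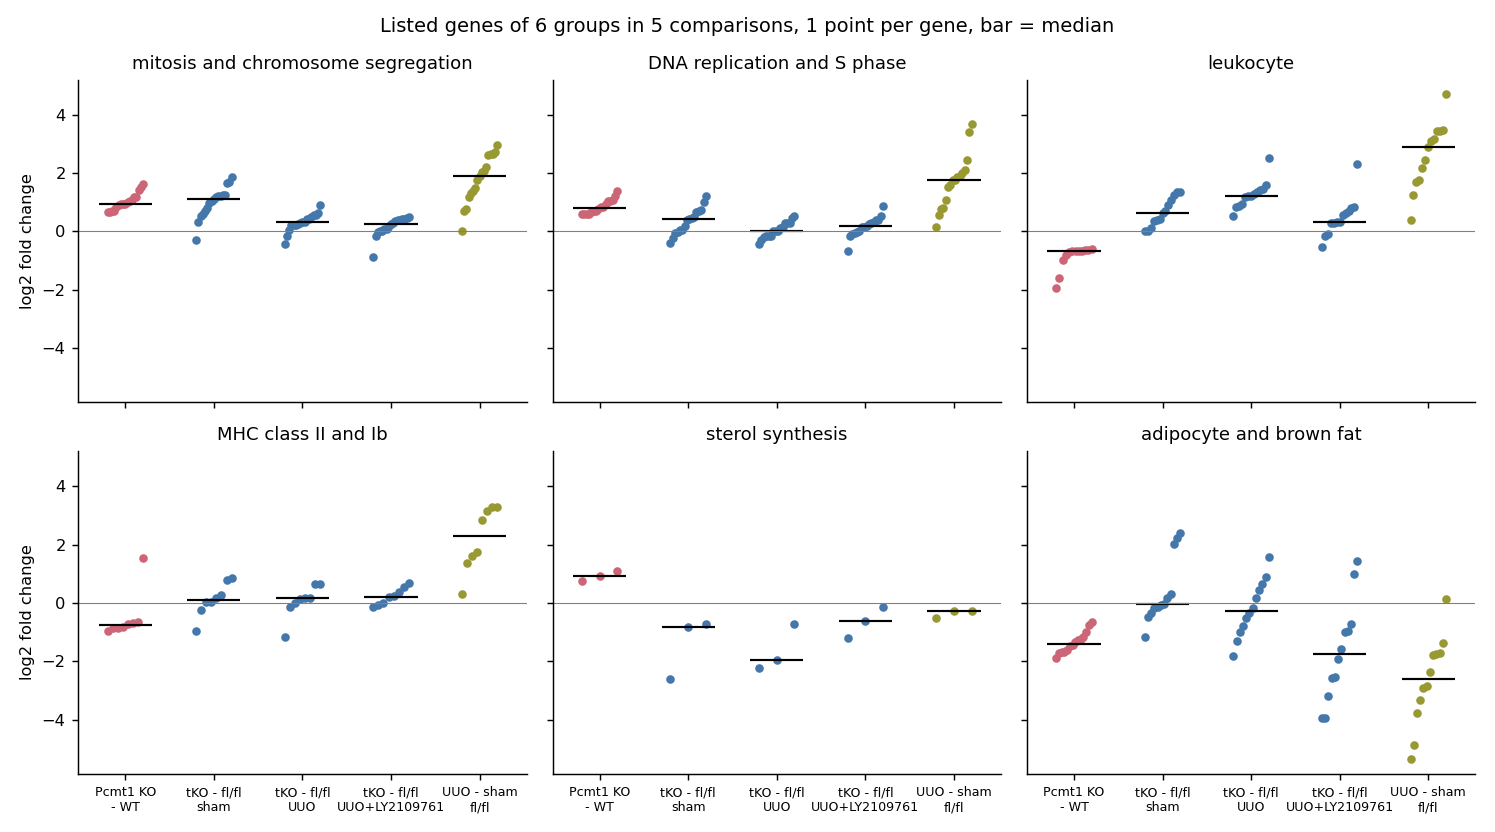
Log2 fold change (vertical axis) of the listed genes of 6 groups in 5 comparisons, 1 point per gene, bars at the median. Mitotic genes lie above 0 in whole kidney knockout and, in 16 of 17 cases, in sham tKO, whereas the tested leukocyte genes lie below 0 in whole kidney and all 13 above 0 in obstructed tKO; the tKO and UUO columns share fl/fl libraries.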

How the data were processed

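RNA of mouse kidneys was sequenced; fastp, HISAT2, StringTie and GRCm38/mm10 are listed, with no tool version, in the submitters' processing notes. Counter, annotation and strand setting: not given in the sources used here. For each gene and library the authors deposited a read count and an FPKM per gene and library. Coordinates are printed from the whole kidney table, where 405 of 410 genes sit at GENCODE M21 (GRCm38) positions; among genes of the obstruction experiment 2.9% do, so its coordinates were not used. Depth came from count over FPKM in genes with at least 20 counts. Counts were tested with edgeR 4.0.16 (R 4.3.3), quasi-likelihood, Benjamini-Hochberg, threshold 0.05, with recovered depth (whole kidney) or TMM over 18 libraries. Obstruction CPM use TMM-scaled library sizes (13015669 to 19565376 reads). DESeq2 1.42.0, limma 3.58.1, other scalings and filters, and omission of each library were alternatives. Scripts were tested on simulated data. Members, gene lists and tests were chosen with earlier results of these data known, and the functional groups, motifs and interaction contrasts after values were seen. Named genes are the 12 largest changes each way among called genes without overlap and at least 5 CPM, up to 4 per list, up to 8 each way from the tKO comparisons, and members of the functional groups. HK-2 cells were not used here, and 1 gene that meets the naming rule is not reported here.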

Additional observations from a re-analysis of the deposited data

Results flagged for a closer look

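Among the named genes, 224 groups of 4 whole kidney libraries were examined for a library standing apart, and 16 had one; chance alone flags about 1 in 20. In knockout replicate 1, Ugt1a1 stood low at 38.9 CPM and Ugt1a2 high at 988.5 CPM, Kcnk3 low at 3.59 CPM and Serpina1c high at 3.82 CPM. In knockout replicate 2, Tent4b was high at 37.1 CPM, Edn1 low at 1.75 CPM and Arl8a low at 14.4 CPM. In knockout replicate 3, Fgfr1op was high at 31.3 CPM, Gdf15 low at 15.6 CPM and Kcnj16 low at 23.6 CPM. In knockout replicate 4, Eva1a was high at 52.7 CPM and Cyp27b1 low at 7.38 CPM. In wild-type replicate 2, Hadhb was high at 93.7 CPM, Arl8a high at 59.9 CPM and Acp5 low at 23.7 CPM. In wild-type replicate 4, Kcnj16 was high at 425.8 CPM, against at most 26.9 CPM in the other wild-type libraries.

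For 10 named genes the tKO difference under obstruction changed with LY2109761 in a test of the interaction added after the data were seen, where 13.8% of all 19256 genes were called. The change in log2 difference was -5.02 for Clec3b, -4.07 for Nr4a1, -2.78 for Acp5, -2.05 for Mfap5, -1.999 for Ifi27l2a and -1.32 for Pi16, and 3.10 for Ldha-ps2, 1.67 for Rdh16f2, 1.46 for Arl8a and 1.03 for Dck. The adjusted p (edgeR) ran from 0.00369 for Arl8a to 0.0449 for Acp5.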

How the results depend on the processing

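The whole kidney counts depended on scaling and on single libraries. Against 177 higher and 78 lower, TMM on the listed genes gave 34 and 123, DESeq2 with its own size factors 32 and 140, and column totals 208 and 52. With 1 library left out the counts ran from 25 to 140 higher and from 14 to 69 lower. Replicate numbers did not pair the samples (same-numbered deviations correlated at most 0.082), and with the replicate block 22 and 19 were called. In sham kidneys, against 27 higher and 17 lower in tKO, column totals gave 1 and 5, no filter 11 and 6, DESeq2 43 higher, the 2 groups alone 0 and 0, the replicate block 0 and 0, and omission of 1 library 7 to 33 higher and 3 to 23 lower. In obstructed kidneys, against 33 and 26, column totals gave 10 and 9, no filter 18 and 15, the replicate block 1 and 2, and omission of 1 library 11 to 28 higher and 13 to 24 lower. With LY2109761, against 2 and 4, column totals gave 0 and 0, no filter 0 and 1, DESeq2 11 and 22, the 2 groups alone 1 higher, the replicate block 0 and 0, and omission of 1 library 0 to 5 and 0 to 9. For UUO in fl/fl, column totals gave 157 higher and 47 lower against 102 and 88, and omission of 1 library 85 to 94 and 67 to 84. Shared signs with sham ran from 187 to 206 of the genes tested in both. Leaving out 1 library, the log2 difference of Hadhb ran from -0.885 to 0.02 (without wild-type replicate 2) and that of Kcnj16 from -2.423 to 0.265 (without wild-type replicate 4). Which cause lies behind these shifts was not tested. Listed genes below about 1 CPM rest on few reads, and counting error alone limits them.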
